A study of Mus musculus with 14 samples.

Results

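Neural progenitor and neuron genes were followed through the spontaneous differentiation of mouse embryonic stem cells (ESCs). The set holds 7 genes taken by their symbols, Sox1, Pax6, Zic1, Neurog2, Hes5, Nes and Tubb3, and its rule uses no measured value. All 7 are among the 50686 genes of the count table, of which 21939 were taken as protein-coding. The table of normalized values, which lists 16181 genes, holds 5 of the 7, and Neurog2 and Hes5 were therefore read from the counts through their gene identifiers.

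RNA came from a pair of stable ESC lines that, as far as the study's text says, both carry an Osr1-GFP reporter, 1 expressing a short hairpin RNA against Dis3l2 (shDis3l2) and 1 expressing a hairpin against LacZ (shLacZ), a bacterial gene used as the control target. Dis3l2 is an exoribonuclease that degrades RNAs carrying an oligo-uridine tail. Each line was sampled undifferentiated in LIF and 2i inhibitors (d0) and as embryoid bodies (EBs), aggregates formed in hanging drops with serum after LIF and 2i were withdrawn, every 2 days from d2 up to d12. The design gives 14 libraries, 1 per line and day, so that no library has a replicate and each line is represented by 1 culture series.

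In the vertebrate embryo, ectoderm that escapes BMP and Wnt signals forms the neural plate, where SoxB1, Pax and Zic transcription factors mark neural progenitors. Notch signalling, read out through Hes genes, holds these cells as progenitors, while proneural factors such as Neurog2 drive them to leave the cell cycle as neurons. Nestin and neuronal tubulin are cytoskeletal products of progenitors and of neurons, and both are also made outside the nervous system. EBs in serum form several germ layers at once, and a bulk library cannot tell fewer cells of a type from less RNA per cell.

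Between 7178712 reads (shLacZ d4) and 39888099 reads (shLacZ d0) were counted on genes. A library with 0 reads of a gene allows up to 3 counts, the floor used here, which is 0.0752 CPM (counts scaled to 1000000 reads on genes) for the largest library and 0.418 CPM for the smallest. Intervals are 95% Clopper-Pearson intervals on the ratio of the reads of 2 libraries. They cover counting error only, since amplified reads were not collapsed to molecules, and they compare libraries, not lines. The targeted gene Dis3l2 was at 13.7% of the shLacZ level at d0, 28.1% at d2, 32.1% at d4 and 55.2% at d6. It was at 97.1% at d8 (interval of the fold 0.837 to 1.13), 94.98% at d10 (0.788 to 1.15) and 75.4% at d12, so that the libraries labelled shDis3l2 at d8 and d10 carried no detectable reduction of the Dis3l2 transcript. With library totals as the scale, protein-coding genes had a median log2 fold between the lines of -0.32 at d0 and between -0.07 and 0.05 from d2 to d12.

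The 7 genes differed widely in abundance. Compared per length of their exons, as RPKM, the CPM divided by the exon length in kilobases, Tubb3 reached 50.1 RPKM and Nes 31.4 RPKM, whereas Sox1 reached 1.74, Pax6 0.475 and Zic1 0.576 RPKM. Neurog2 did not pass 0.188 RPKM nor Hes5 0.582 RPKM in any library. Over all 14 libraries the reads summed to 16083 for Nes, 8065 for Tubb3, 417 for Pax6, 369 for Sox1, 328 for Zic1, 21 for Hes5 and 12 for Neurog2.

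**Figure D1:**
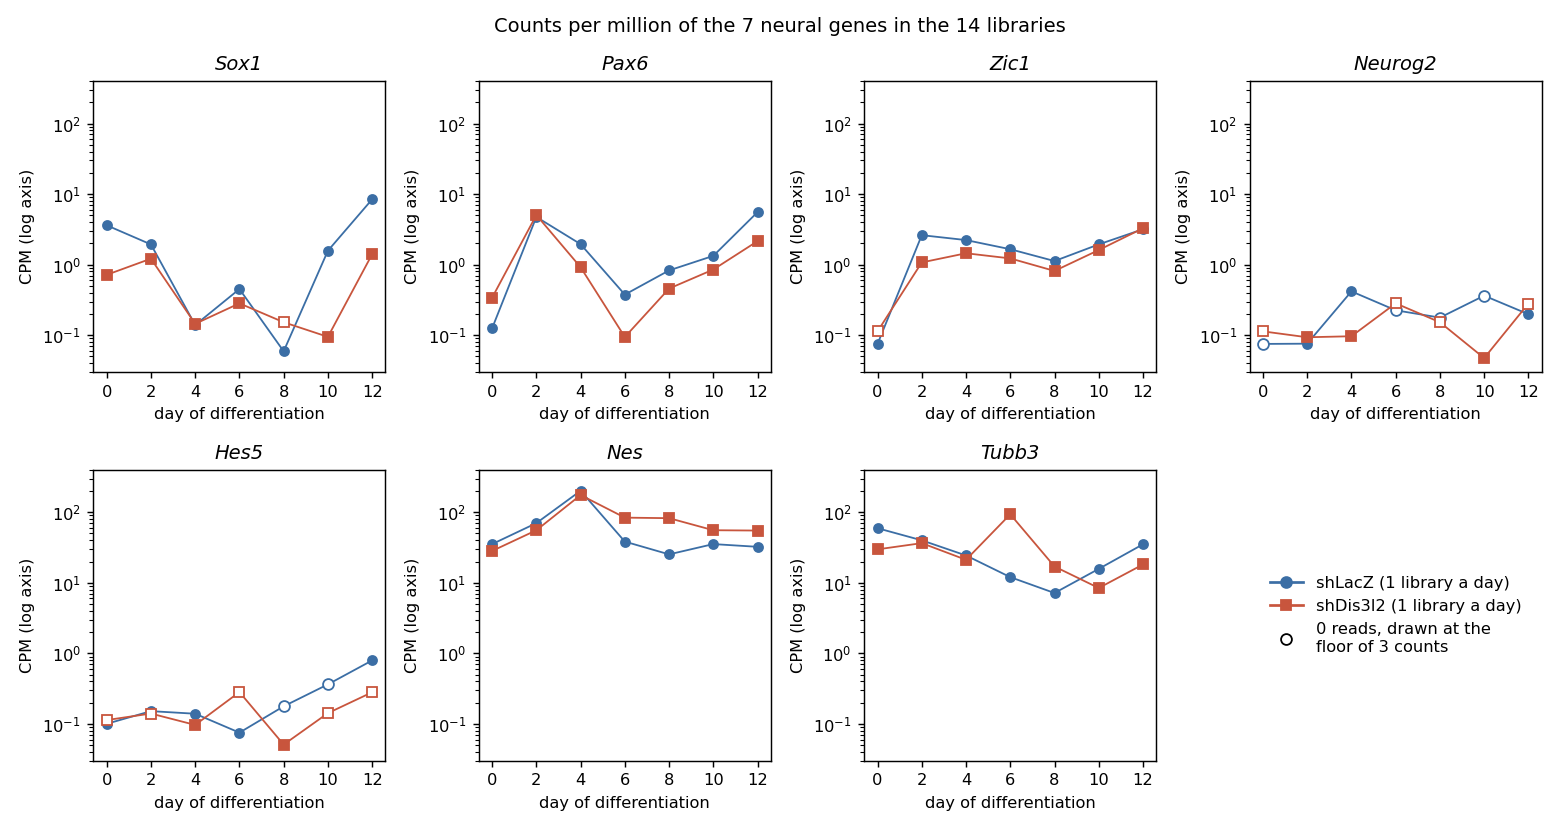
CPM (log axis) of each gene against the day of differentiation, with shLacZ as circles and shDis3l2 as squares, 1 library a point, and libraries without a read drawn open at the floor of 3 counts. Nes peaks at d4 in both lines, at 201 (shLacZ) and 175 CPM (shDis3l2), and Tubb3 stands at 93.5 CPM in shDis3l2 at d6 against 12.0 CPM in shLacZ.

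Sox1, a SoxB1 factor that marks neuroectoderm from its first appearance, lies on chromosome 8 of GRCm38 at 12395295 to 12400126, on the plus strand, with 4832 bases of exon. Of these, 86 bases (1.78%) are shared with the microRNA gene Gm25239, which had 0 reads. In shLacZ it had 144, 51, 1, 6, 1, 13 and 85 reads on the 7 days from d0 to d12, or 3.61, 1.93, 0.139, 0.451, 0.0592, 1.57 and 8.43 CPM. In shDis3l2 it had 19, 26, 3, 3, 0, 2 and 15 reads on the same days, or 0.718, 1.21, 0.145, 0.283, 0, 0.0947 and 1.40 CPM. The shLacZ series is U-shaped, with the levels of d4 to d8 at or near the floor and the highest level at d12. In shDis3l2 the levels of d4 to d10 were at or below the floor. Its highest value, 1.40 CPM at d12 (15 reads), was close to the 1.21 CPM of d2 (26 reads). The shLacZ value was above the shDis3l2 value on every day except d4 (1 read against 3), although at d8 it rested on 1 read against 0.

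At d12 Sox1 was 6.00-fold lower in the shDis3l2 library than in the shLacZ library (interval 3.44 to 11.2-fold). It was 16.6-fold lower at d10 (3.76 to 152-fold, 2 reads against 13) and 5.03-fold lower already in undifferentiated cells at d0 (3.11 to 8.60-fold). The log2 fold of -2.33 at d0 stands against the median of -0.32 for all genes that day. At d2 it was 1.59-fold lower with an interval that includes no difference (0.974 to 2.66-fold), and at d6 the counts were too few to tell. Among protein-coding genes with at least 1 CPM in 1 library of the day, 2.36% were at least 3-fold lower at d0, 3.17% at d10 and 1.42% at d12.

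Pax6, a paired-box factor of forebrain, eye and spinal cord progenitors that is also used in the endocrine pancreas, lies on chromosome 2 at 105668900 to 105697364 on the plus strand and shares no exon bases with another gene. It had 5, 125, 14, 5, 14, 11 and 56 reads over the 7 days in shLacZ, or 0.125, 4.74, 1.95, 0.376, 0.828, 1.33 and 5.55 CPM. In shDis3l2 it had 9, 108, 19, 1, 9, 18 and 23 reads, or 0.340, 5.05, 0.918, 0.0942, 0.458, 0.852 and 2.15 CPM. The gene had 2 maxima, 1 at d2 that the lines shared and 1 at d12 that was higher in shLacZ. The fold at d2 was 1.07 (0.816 to 1.39), while at d12 Pax6 was 2.58-fold lower in the shDis3l2 library (1.56 to 4.39-fold), which does not reach 3-fold. From d4 to d12 each shDis3l2 value was below the shLacZ value of its day, although the interval included no difference on every one of these days but d12.

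Zic1, a zinc finger factor of the dorsal neural tube that is also expressed in somites, lies on the minus strand of chromosome 9 at 91358058 to 91365810. It shares 60 exon bases (1.05%) with Zic4 on the opposite strand, which had at most 10 reads in a library. It had 3, 69, 16, 22, 19, 16 and 32 reads in shLacZ, or 0.0752, 2.62, 2.23, 1.65, 1.12, 1.94 and 3.17 CPM. In shDis3l2 it had 0, 23, 30, 13, 16, 34 and 35 reads, or 0, 1.07, 1.45, 1.23, 0.814, 1.61 and 3.28 CPM. From d2 on, Zic1 was lowest at d8 and highest at d12 in both lines, a range of 1.12 to 3.17 CPM for the control and of 0.814 to 3.28 CPM for the knockdown. It was 2.43-fold lower in the shDis3l2 library at d2 (1.499 to 4.09-fold), and from d4 to d12 every interval included no difference, with a fold of 1.03 at d12 (0.621 to 1.72).

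Neurog2, the proneural bHLH factor of dorsal forebrain and spinal cord, lies on chromosome 3 at 127633135 to 127635631. It had 0, 2, 3, 0, 0, 0 and 2 reads in shLacZ and 0, 2, 2, 0, 0, 1 and 0 reads in shDis3l2. Every library was at or below the floor. Summed over the series the reads were 7 against 5 (ratio 0.667, 0.167 to 2.44), so no difference between the lines was detectable at this depth.

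Hes5, a bHLH repressor transcribed in response to Notch in neural progenitors, lies on chromosome 4 at 154960923 to 154962371. It had 4, 4, 1, 1, 0, 0 and 8 reads in shLacZ and 0, 0, 2, 0, 1, 0 and 0 reads in shDis3l2. The only library with more than 4 reads was shLacZ d12, at 0.793 CPM, where shDis3l2 had none and was thus at least 2.82-fold lower with its floor of 3 counts. Over the series 18 reads stood against 3 (ratio 0.156, 0.0294 to 0.533), a comparison of summed libraries that differ in depth by day. Of the 1363 exon bases of Hes5, 433 (31.8%) overlap the opposite-strand transcript Gm20421, which had 0 reads in every library, and reads in that stretch may have been left out of the count, so its level is uncertain.

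The proximal promoter of Hes5 is a textbook target of the Notch-dependent DNA-binding protein Rbpj, whose high-affinity core reads GTGGGAA. In the 250 bases upstream of the RefSeq start, on GRCm38.p6, that motif was searched on both strands, and 2 copies were found for Hes5. They are given with 1 for Hey2, a Notch target that was more abundant in these EBs, in the direction of the gene with the match in capitals:

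Hes5, chr4:154960686-154960715, match 226 bases upstream: gggcgagcgcgTTCCCACagcccggacatt
Hes5, chr4:154960829-154960858, match 83 bases upstream: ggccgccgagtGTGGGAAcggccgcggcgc
Hey2, chr10:30842972-30843001, match 207 bases upstream: gcgcggtggcaTTCCCACgcctctgccaac

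The motif was present in 1779 of 32851 RefSeq promoter windows (5.42%). No copy lay in the windows of the other 6 genes of the set, nor in those of the Notch pathway genes Nrarp and Hes6. The windows of Hes1, Hey1 and Heyl were not searched. While Hes5 stayed under 1 CPM, Hey2 reached 19.2 (shLacZ) and 37.0 CPM (shDis3l2) at d6. Hes1, a Notch-responsive repressor used in many tissues, ranged from 19.9 to 58.5 CPM in the control and from 17.1 to 59.5 CPM in the knockdown series. A match is a stretch of letters and not evidence of binding.

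Nes encodes nestin, the intermediate filament of neural stem cells that is also made by muscle precursors, endothelium and mesenchymal cells. It lies on chromosome 3 at 87971078 to 87980451 and overlaps no other gene. In shLacZ it stood at 35.3, 70.0, 201, 38.3, 25.3, 35.3 and 32.3 CPM from d0 to d12, with 292 to 1848 reads a library. In shDis3l2 it stood at 28.3, 55.5, 175, 83.8, 82.3, 55.6 and 55.0 CPM, with 587 to 3623 reads. The peak at d4 did not overlap the levels of any other day. At d6 the shLacZ value was back near the level of d0, whereas the shDis3l2 value stayed above its own levels of d0 and d2 until d8.

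The order of the lines for Nes turned between d4 and d6. The shDis3l2 library was slightly lower at d0 (fold 0.800), d2 (0.792) and d4 (0.870, 0.818 to 0.925), but at d0 its log2 fold (-0.32) and the median over all protein-coding genes compared (-0.32) were the same to 2 decimals, and with DESeq2 size factors the fold at d0 was 1.05. It was higher at d6 (2.19, 1.96 to 2.44), d8 (3.26, 2.93 to 3.63), d10 (1.57, 1.38 to 1.79) and d12 (1.70, 1.48 to 1.95). The 4 late shLacZ values reached at most 38.3 CPM and the 4 late shDis3l2 values were at least 55.0 CPM, so these did not overlap. Of all protein-coding genes compared at d8, 5.5% were at least 3-fold higher in shDis3l2.

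Tubb3 encodes class III beta-tubulin, the tubulin by which neurons are commonly stained, and is placed on chromosome 8 at 123411424 to 123422015, where it shares no exon bases with the overlapping gene model Gm20388. In shLacZ it stood at 59.3, 40.0, 24.4, 12.0, 7.16, 15.7 and 35.1 CPM, with 121 to 2367 reads a library. In shDis3l2 it stood at 29.8, 36.4, 21.2, 93.5, 17.0, 8.43 and 18.2 CPM, with 178 to 992 reads. The shLacZ values were lower on each day up to d8 and higher again after it, while the shDis3l2 values had a single high library at d6 and their lowest level at d10.

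At d6 Tubb3 was 7.77-fold higher in the shDis3l2 library (6.57 to 9.25), on a day when 2.73% of protein-coding genes were at least 3-fold higher. It was 2.37-fold higher at d8 (1.92 to 2.95). On the other side it was 1.99-fold lower at d0 (1.84 to 2.16-fold), 1.87-fold lower at d10 (1.48 to 2.35-fold) and 1.93-fold lower at d12 (1.62 to 2.31-fold). The direction of the Tubb3 difference thus depended on the day, and with 1 library a day it was not tested whether the d6 value would recur in a second culture.

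**Figure D2:**
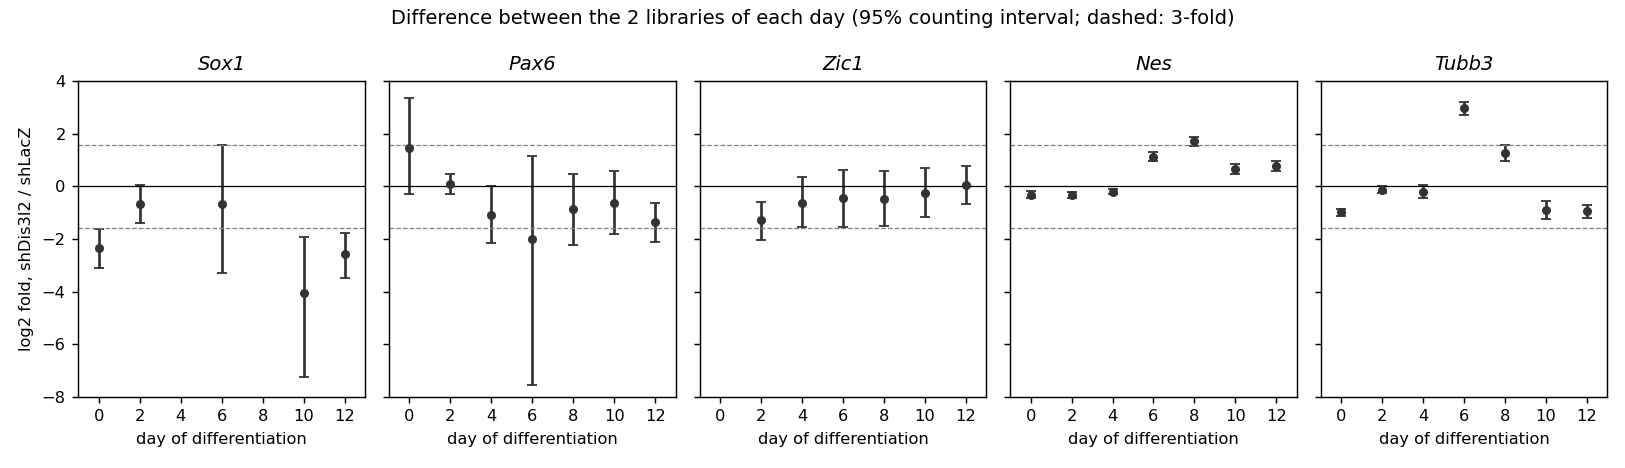
Log2 of the ratio of shDis3l2 to shLacZ for each day, with 95% counting intervals and dashed lines at 3-fold, for the 5 genes with enough reads. Days on which a library had 0 reads or both had at most 3 are left out. Nes crosses from below to above 0 between d4 and d6, Tubb3 stands at a fold of 7.77 at d6 alone, and Sox1 lies below the 3-fold line at d0, d10 and d12.

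Of the 49 combinations of gene and day, 28 had at least 1 CPM in 1 library and were compared. The shDis3l2 library was at least 3-fold higher in 2 of these (Tubb3 at d6 and Nes at d8) and at least 3-fold lower in 3 (Sox1 at d0, d10 and d12). The differences of Nes at d8 and of Sox1 at d10 belong to days on which the Dis3l2 transcript itself was not detectably lower. The transcription factors and the cytoskeletal genes did not move together: at d6 and d8 only Nes and Tubb3 were higher in shDis3l2, and at d10 and d12 Tubb3 stood with Sox1 and Pax6 on the lower side while Nes stayed higher. Among all protein-coding genes compared, the share at least 3-fold higher in shDis3l2 was, in order of the 7 days, 0.6%, 0.114%, 0.361%, 2.73%, 5.5%, 8.62% and 8.17%, and the share at least 3-fold lower was 2.36%, 0.144%, 1.69%, 4.27%, 3.77%, 3.17% and 1.42%. Members were called higher on days when 2.73% and 5.5% of genes were. None of the 5 members compared at d10, or of the 5 at d12, was called higher. With so few members compared, this cannot be told from the shares of 8.62% and 8.17%.

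Neighbouring days of each line were compared in the same way. Of 84 possible combinations 51 were compared, of which 10 were at least 3-fold higher on the later day and 6 lower. Among all protein-coding genes the share at least 3-fold higher over the 6 steps was, in order, 26.6%, 6.79%, 4.78%, 3.43%, 1.2% and 1.28% in shLacZ and 33.5%, 7.31%, 8.39%, 6.55%, 2.86% and 1.66% in shDis3l2. The share at least 3-fold lower was 10.6%, 6.33%, 5.93%, 1.06%, 0.993% and 0.633% in shLacZ and 10.2%, 8.8%, 7.65%, 1.48%, 0.768% and 0.339% in shDis3l2. From d0 to d2 Pax6 was 37.8-fold higher in shLacZ (15.8 to 118) and 14.8-fold higher in shDis3l2 (7.54 to 33.3). Zic1 was 34.8-fold higher in shLacZ (11.4 to 173), from only 3 reads at d0, and at least 9.49-fold higher in shDis3l2, which had none. In this step the median of all genes was itself higher by 0.50 in shLacZ and 0.78 in shDis3l2 on the log2 scale, so a higher level at d2 was common.

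From d2 to d4 Sox1 was 13.9-fold lower in shLacZ (2.38 to 559, 1 read against 51) and 8.38-fold lower in shDis3l2 (2.57 to 43.3). Pax6 was 5.50-fold lower in shDis3l2 in that step (3.36 to 9.48), and 5.19-fold lower in shLacZ in the next (1.77 to 18.4). Nes was 3.15-fold higher in shDis3l2 from d2 to d4 (2.95 to 3.37) and 2.87-fold higher in shLacZ (2.68 to 3.08). From d4 to d6 it was 5.25-fold lower in shLacZ (4.74 to 5.82) and 2.09-fold lower in shDis3l2 (1.94 to 2.25). Tubb3 in shDis3l2 was 4.42-fold higher from d4 to d6 (3.94 to 4.96) and 5.50-fold lower from d6 to d8 (4.86 to 6.25), a step in which 1.48% of genes were at least 3-fold lower.

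The last steps concerned Sox1 and Pax6. In shLacZ Sox1 was 26.6-fold higher at d10 than at d8 (4.00 to 1130, from 1 read) and 5.36-fold higher at d12 than at d10 (2.97 to 10.5), and Pax6 was 4.17-fold higher in the last step (2.16 to 8.83), where 1.28% of genes were at least 3-fold higher. In shDis3l2 Sox1 was 14.8-fold higher in the last step (3.45 to 134, from 2 reads). Sox1 was thus higher at d12 than at d10 in both lines, and the d12 level of shDis3l2 was below that of shLacZ.

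Pooled differences were fitted with edgeR's quasi-likelihood test on the counts with Benjamini-Hochberg adjustment over all genes tested and day as a factor. The days of 1 series stand in for replicates here, so a p-value measures how steady a difference was from day to day and not how it would vary between cultures. Of the 7 genes, 5 had enough reads to be tested and Neurog2 and Hes5 did not. Over d6 to d12, 19.6% of 17164 genes were called higher in shDis3l2 and 18.7% lower, so a call in this fit was not rare. Nes was higher (log2 fold 1.06, SE 0.17, edgeR adjusted p = 0.00392, from 9.47e-07 to 0.0149 over the alternatives), with a higher value on 4 of 4 days. Sox1 was lower (log2 fold -2.58, SE 0.53, edgeR adjusted p = 0.00933, from 0.000372 to 0.0525), and without d10 it did not pass (-2.15, 0.0525), while without d12 it had too few reads to be tested. Pax6 was lower (log2 fold -1.08, SE 0.32, edgeR adjusted p = 0.0344, from 0.0333 to 0.174), a call that was lost with DESeq2 (0.113) and in edgeR without d8 (0.0886), without d10 (0.0712) or without d12 (0.174).

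For Zic1 the log2 fold over d6 to d12 was -0.27 (SE 0.24, edgeR adjusted p = 0.419, 0.393 to 0.686 over the alternatives). For Tubb3 it was 0.58 with a wide SE of 0.67 (edgeR adjusted p = 0.534, 0.220 to 0.832), and -0.24 without d6. Of the 5 genes tested, 1 was thus called higher and 2 lower, beside the 19.6% and 18.7% of all genes. The targeted gene Dis3l2 was itself not called lower in this fit (log2 fold -0.35, SE 0.16, edgeR adjusted p = 0.126).

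Over all 7 days only 1.91% of 20050 genes were called higher and 3.82% lower. Sox1 was the one member called (log2 fold -1.85, SE 0.44, edgeR adjusted p = 0.0399, 0.00679 to 0.141 over the alternatives), and it did not pass without d0 (0.0577), d6 (0.0776), d8 (0.109), d10 (0.117) or d12 (0.141). The other estimates were 0.48 for Nes, -0.56 for Pax6, -0.59 for Zic1 and 0.07 for Tubb3, with edgeR adjusted p of 0.196, 0.348, 0.177 and 0.936. The estimate for Tubb3 turned to -0.32 without d6 and -0.11 without d8.

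A separate fit tested whether the difference between the lines was another one late (d6 to d12) than early (d0 to d4). For Nes it did, by 1.18 on the log2 scale (SE 0.22, edgeR adjusted p = 0.0119, 1.52e-08 to 0.0572 over the alternatives), in a fit that called 4.85% of genes in that direction, although without d2 the adjusted p was 0.0572. For Sox1 (-1.41, 0.241), Pax6 (-1.21, 0.214), Zic1 (0.70, 0.382) and Tubb3 (0.86, 0.531) the edgeR test was not passed, so their late differences were not shown to differ from the early ones. Among all genes, 5.24% were called in the negative direction. The targeted gene Dis3l2 was called in the positive direction (1.61, SE 0.29, edgeR adjusted p = 0.0112), its reduction being smaller late than early. For Tubb3 the adjusted p was 0.00395 when genes with low counts were kept in the edgeR fit.

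Variation with day, in a fit with line as a factor, was called for 84.7% of genes. It was called for Zic1 (edgeR adjusted p = 0.000566, 3.35e-09 to 0.0466 over the alternatives), Sox1 (0.000701, 1.46e-09 to 0.00433), Pax6 (0.000786, 2.18e-08 to 0.00701) and Nes (0.00270, 2.78e-07 to 0.602). The call for Nes rested on d4, without which its adjusted p was 0.602. For Tubb3 the edgeR adjusted p was 0.0616 (0.00244 to 0.207) and it passed with DESeq2 (0.00386), with genes of low counts kept (0.00244), without d6 (0.00411) and without d12 (0.0464).

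**Figure D3:**
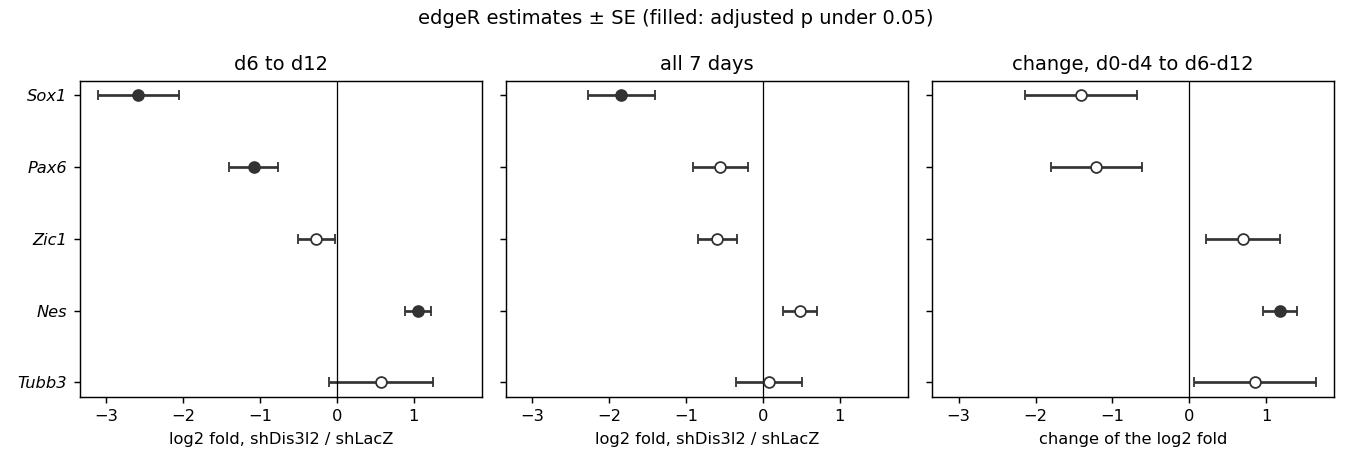
edgeR log2 estimates with their SE for the 5 genes tested, over d6 to d12 (left), over all 7 days (middle) and for the change of the difference from d0 to d4 against d6 to d12 (right), with filled points where the adjusted p was under 0.05. Sox1 is below 0 in the first 2 panels at -2.58 and -1.85, and Nes is above 0 at 1.06 in the first and 1.18 in the last.

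The genes were set beside 8 lists of neural genes and 8 lists for other cells the EBs could hold, the members left out of each. Among 27 other early neural plate and regional transcription factors, 16 were tested over d6 to d12 and 9 were called lower in shDis3l2 by edgeR, with none higher, beside 18.7% lower and 19.6% higher of all genes. Their median log2 fold was -1.19, and without d10 the list had 6 called lower. Otx2, a homeobox factor of forebrain, midbrain and epiblast, was at 2.89 CPM in shDis3l2 against 32.0 CPM in shLacZ at d10 and at 7.12 against 30.8 CPM at d12. In the same order Zic2 was at 2.18 against 27.6 CPM at d10, but it was not called at least 3-fold lower at d12. Six3, a factor of the anterior neural plate, was at 0.0936 against 3.37 CPM at d12. The shDis3l2 value of Six3 lies under the floor of its library (0.281 CPM). Sox2, Otx2 and Zic2 are also expressed in pluripotent cells or epiblast, and the 9 pluripotency genes moved with these results, with 7 of 9 called lower and none higher. The summed pluripotency level from d6 to d12 was 140 to 391 CPM in shDis3l2 against 467 to 585 CPM in shLacZ, and its part in the lower Sox1 and Pax6 values was not tested. Without d8 or without d10 the pluripotency list had 3 genes called lower.

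Among the radial glia and progenitor products, 7 of 12 tested were called higher in shDis3l2 and 1 lower, and between 4 (without d8) and 7 were higher when a day was left out. Vim, an intermediate filament of progenitors and mesenchyme that assembles with nestin, was at 1056 CPM in shDis3l2 against 274 CPM in shLacZ at d10. At d12 Vim was not called at least 3-fold higher. Ptn, a secreted growth factor, stood at 265 against 27.9 CPM at d12, Ncam1, a neural cell adhesion molecule that is also found in muscle and kidney, at 174 against 30.2 CPM at d12, and Cdh2, N-cadherin, at 104 against 40.6 CPM at d10. The gene called lower was Pou3f1, a POU factor of epiblast and neuroectoderm, at 0.852 against 10.5 CPM at d10. At d12 Pou3f1 was not called at least 3-fold lower. Mesenchyme-like markers differed between the lines in the same direction as Nes, with 7 of 8 called higher. Their summed level over d6 to d12 was 1071 to 16676 CPM in shDis3l2 against 331 to 1915 CPM in shLacZ. Their course was another one, since in shDis3l2 the sum went from 1071 CPM at d6 to 16676 CPM at d12. Nes in shDis3l2 went from 83.8 CPM at d6 to 55.0 CPM at d12. Cardiomyocyte-like markers were higher for 5 of 5 tested, with sums of 37.4 to 177 against 19.1 to 38.8 CPM, and for 3 without d8 or without d10. Endothelial-like markers were higher for 3 of 7 and somite and muscle-like markers for 4 of 8 with 1 lower, with sums of 203 to 429 against 97.4 to 236 CPM and of 19.9 to 26.3 against 12.2 to 20.3 CPM. The somite and muscle-like count was 2 without d8 or d12 and 1 without d10, and the endothelial-like count was 2 without d8 or d10, with 2 lower without d6. No gene of these 4 lists was at or below the floor throughout, and the part of such cells in the Nes difference was not tested.

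**Figure D4:**
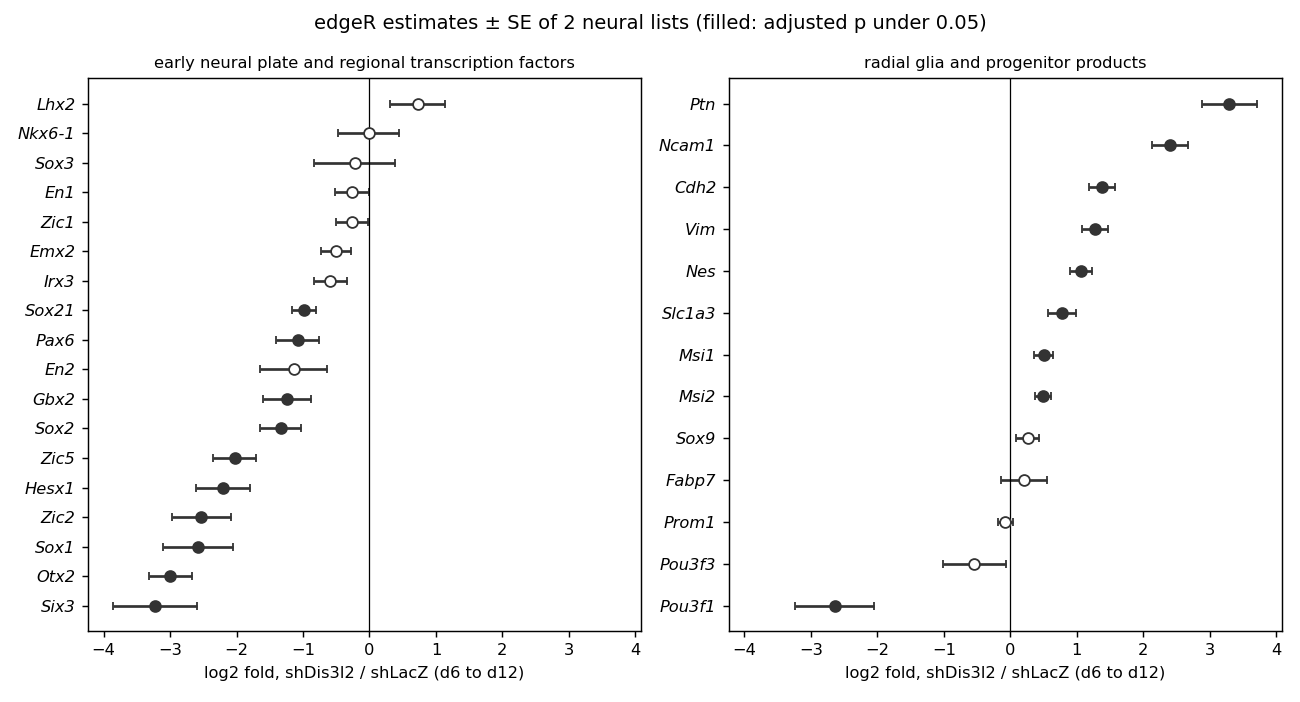
edgeR log2 fold over d6 to d12 with its SE for the tested genes of the early neural factor list (left, 1 called factor not drawn) and of the progenitor product list (right), the members of the set included and genes past the threshold filled. Of the other genes drawn, 8 of 15 factors are filled on the negative side and 7 of 12 products are filled on the positive side.

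The proneural list was low outside d2, when its summed level was 69.7 (shLacZ) and 76.2 CPM (shDis3l2), against at most 11.6 CPM on any other day. Of its 10 other genes 6 reached 1 CPM anywhere and 3 could be tested over d6 to d12, of which Ebf2, a factor of neuronal and mesenchymal cells, was called higher, at 3.37 against 0.496 CPM at d12. Neurod1, a bHLH factor of neurons and endocrine cells, had its highest level at d2, at 50.5 CPM in shDis3l2 against 44.8 CPM in shLacZ, as had Insm1, a zinc finger factor of the same cells, at 14.1 against 14.5 CPM. Both were at or below 1.36 CPM in every library from d6 on. Neurog1, the nearest relative of Neurog2, did not pass 0.227 CPM.

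Of 18 other Notch pathway genes, all of them tested over d6 to d12, 3 were called higher in shDis3l2 and 4 lower, shares close to those of all genes. The receptors Notch2 (103 against 98.0 CPM at d12) and Notch3 (135 against 86.0 CPM) and the target gene Heyl (6.09 against 0.893 CPM) were called higher, and Mib1, the ubiquitin ligase that activates Notch ligands, was at 196 against 150 CPM without passing the test. The ligands Dll1 and Jag2, the regulator Nrarp and Hes6, a Hes factor that opposes Hes1, were called lower, and without d8 or without d10 none of the list was called lower. Hes5 had too few reads to be placed among them.

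Of 20 neuronal products tested, 4 were called higher (20%) and 5 lower (25%), beside 19.6% and 18.7% of all genes. The counts were 2 and 2 without d10 and 3 and 3 without d8. Tubb2a (70.6 against 35.5 CPM at d10) and Tubb2b (125 against 74.8 CPM), neural beta-tubulins that these cells already made at d0, were higher, as was Isl1, a factor of motor and sensory neurons, heart progenitors and pancreatic islets (25.7 against 5.75 CPM at d12). Stmn2, a regulator of neuronal microtubules, was lower (9.46 against 24.3 CPM at d12), and so was Elavl3, a neuronal RNA-binding protein (0.843 against 2.98 CPM). Rbfox3, the antigen of mature neurons, did not exceed 0.834 CPM in any library, and Snap25, a synaptic protein, did not exceed 2.22 CPM. Glial genes gave 1 call of 3 tested, Aldh1l1 lower, a folate enzyme of astrocytes that was at 122 and 138 CPM in the ESCs of d0, while Gfap and Olig1 did not pass 1.10 CPM and Mbp ranged from 1.95 to 7.74 CPM. Neural crest genes gave 3 higher, Snai2, Ets1 and Ngfr, and 1 lower, Foxd3, of 7 tested. The number higher was 2 to 5 when a day was left out, with 5 without d6. Msx1, of the same list, was at 10.96 against 19.5 CPM at d12. Of 8 repressors of neuronal genes 4 were called lower with small folds, among them Sin3a (log2 fold -0.19), a count that was 3 without d6 and 1 without d8, d10 or d12. Rest, the main silencer of neuronal genes outside the nervous system, was at 109 against 102 CPM and Ptbp1, a splicing repressor of neuronal exons, at 564 against 609 CPM at d12, without passing the test.

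Of the remaining lists, visceral endoderm-like genes were called lower for 8 of 9, with sums of 288 to 1140 against 658 to 3053 CPM, and primitive streak-like genes for 4 of 6, with 7.28 to 36.3 against 28.7 to 106 CPM. Pancreatic endocrine-like genes, the other cells in which Pax6, Neurod1 and Isl1 are active, gave 1 call of 2 tested, which was Isl1, and Ins1, Ins2 and Gcg were at or below the floor in every library. Each of the 16 lists, neural or not, thus had at least 1 gene called over d6 to d12. With 19.6% of all genes called higher and 18.7% lower in this fit, at least 1 call in a list was not rare. The pancreatic endocrine-like list had 0 to 1 called higher when a day was left out.

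**Figure D5:**
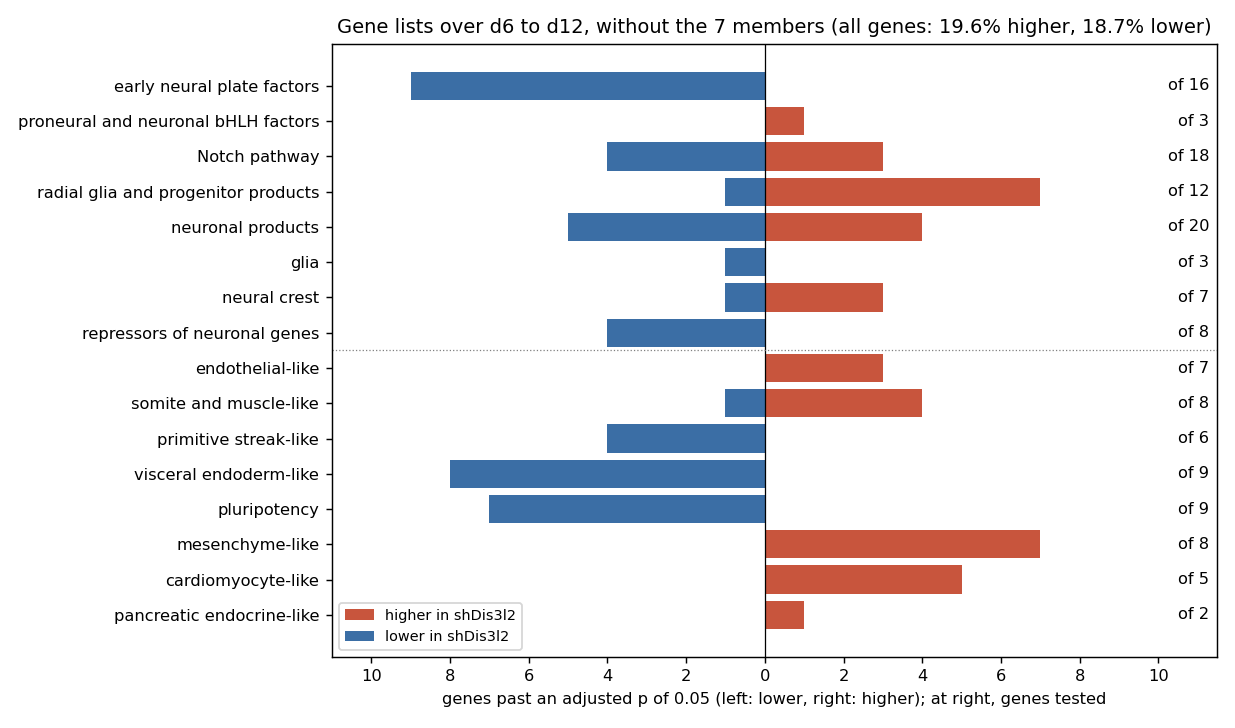
Number of genes of each list called higher (right) or lower (left) in shDis3l2 over d6 to d12 by edgeR, the members left out, with the number tested at the right edge and the neural lists above the dotted line. Early neural factors have 9 of 16 lower and progenitor products 7 of 12 higher, beside 18.7% and 19.6% of all genes.

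The courses of the 5 genes tested were also compared among themselves. Over the 14 libraries, Pearson's r of log2(CPM + 1) was 0.64 for Pax6 with Zic1, 0.51 for Sox1 with Pax6, 0.44 for Sox1 with Tubb3, 0.17 for Nes with Tubb3 and -0.43 for Sox1 with Nes. The points share 2 culture series and the depth of each library, and no test is given. Sox1, Pax6 and Zic1 had only 369, 417 and 328 reads over the 14 libraries, so counting error enters their r, and a low r does not show that courses differ. Among 11566 protein-coding genes with at least 10 CPM in 1 library, the courses most like that of Pax6 were those of Itga6 (r = 0.91), Adgrv1 (0.88) and Enc1 (0.88), and for Zic1 those of Zfp868 (0.92), Gcc1 (0.91) and Zscan20 (0.91). For Sox1 they were Frs3 (0.83), Pde1b (0.82) and Ube2q2 (0.82), and for Tubb3 Arhgap45 (0.81), Radil (0.80) and Sqle (0.76). For Nes they were Cxx1b (0.93), Cnn1 (0.91) and Cxx1a (0.90), of which Cxx1a and Cxx1b are near-identical copies that share reads. By Spearman's rho only Cnn1 for Nes and Arhgap45 for Tubb3 stayed among the nearest 3.

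Ordered by the mean of both lines, Sox1 was highest at d12 and d0, Pax6 at d2 and d12, Zic1 at d12 and d2, Nes at d4 and d2, and Tubb3 at d6 and d0. For Sox1 and Tubb3 the ranges of the 2 lines overlapped between the first days in the order. Within each line, however, Sox1 was higher at d12 than at d0. It was at 8.43 against 3.61 CPM in shLacZ and 1.40 against 0.718 CPM in shDis3l2, the latter on 15 and 19 reads. Tubb3 was higher at d6 than at d0 in shDis3l2 (93.5 against 29.8 CPM) and lower in shLacZ (12.0 against 59.3 CPM). For Pax6 the pair of d2 and d12 overlapped while both stood above d4. For Zic1 the values of d12 lay above those of every other day, and for Nes those of d4. The Zic1 values of d12 rest on only 32 (shLacZ) and 35 reads (shDis3l2). Against d10 the Zic1 fold was 1.64 in shLacZ (0.873 to 3.20), which includes no difference, and 2.04 in shDis3l2 (1.23 to 3.36). No day was the highest for more than 2 of the 5 genes.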

How the data were processed

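RNA of 14 cultures of mouse ESCs and EBs, 1 per line and day, was sequenced after polyA selection, according to the study's methods. Alignment by the authors used Subread and GRCm38 (Ensembl release 88), and featureCounts gave the deposited counts, which are whole reads per gene with no scaling. The deposited CPM values were made by the authors with edgeR over the protein-coding genes that their table lists, and served here as an alternative scale. The columns of the knockdown line carry another short name in the tables and were assigned from the study's supplementary headings. In all, 0 columns belonged to no sample. Symbols, exon lengths and positions came from GENCODE M21, which matched 50462 of 50686 genes, and promoter windows from RefSeq on GRCm38.p6.

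CPM was recomputed from the counts with the total reads on genes and without a prior count, and RPKM with exon length. Folds on 1 day were called at 3-fold or more with at least 1 CPM in 1 of the 2 libraries, since no library has a replicate. Pooled differences were fitted in R 4.3.3 with edgeR 4.0.16 (its quasi-likelihood test, TMM scaling, filterByExpr, Benjamini-Hochberg adjusted p under 0.05), and the alternatives were DESeq2 1.42.0, its size factors, library totals, no filter on low counts and each day left out. Likeness used log2(CPM + 1). Folds and intervals were computed with scipy 1.17.1 (Python 3.11.15), tables with pandas 2.3.3 and numpy 2.4.6, and plots with matplotlib 3.10.9. The fits and intervals were tested on simulated data.

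The members, the 16 lists and the split of the days were chosen with earlier results of these data known. Beside the members, the text names in each neural list the 3 genes of highest CPM and up to 3 with a fold of 3 or more in 1 direction on both d10 and d12, and for likeness the 3 genes of highest r. Values of a few genes that the rule names are left out here. Other genes were named after their values were seen. All 186 list entries were found in the count table.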

Additional observations from a re-analysis of the deposited data

Results flagged for a closer look

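The difference between the lines in Nes was another one after d4 than before. The shDis3l2 libraries were below those of shLacZ at d0, d2 and d4 and above them on the 4 later days, although with DESeq2 size factors the fold at d0 was 1.05, and the direct edgeR test of that change gave 1.18 on the log2 scale (SE 0.22, Benjamini-Hochberg adjusted p = 0.0119), with the days of each series standing in for replicates. Over the alternatives the adjusted p was between 1.52e-08 and 0.0572, the highest without d2. The targeted gene Dis3l2 was not called lower over d6 to d12 (log2 fold -0.35, edgeR adjusted p = 0.126). In the test of the change Dis3l2 was itself called, by 1.61 on the log2 scale (SE 0.29, edgeR adjusted p = 0.0112). The difference in mesenchyme-like markers changed in the same test, with 6 of 8 called higher and 0 lower. For cardiomyocyte-like markers 4 of 5 were called higher and 0 lower, beside 4.85% and 5.24% of all genes. The part of either list in the Nes result was not tested.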

How the results depend on the processing

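With a minimum of 5 CPM, 1 member value was at least 3-fold lower between the lines, and 5 were higher and 3 lower between neighbouring days, while a threshold of 2-fold gave 4 higher and 6 lower between the lines and 16 and 10 between days. The share of all genes is not given at these settings, so these counts cannot be set against it. The members' folds moved by more than their counting interval for 3 values with TMM factors (Nes and Tubb3 at d0, Nes at d4) and for 2 with DESeq2 size factors, and for none of 32 with the deposited CPM. Over all days DESeq2 called 1065 genes higher and 1446 lower and edgeR without the filter 847 and 1246, against 382 and 765. For the change of the difference, edgeR without the filter called 1788 genes higher, and with library totals 1139 higher and 415 lower, against 972 and 1051. Leaving out a day gave 1695 to 3440 genes higher and 1641 to 3237 lower over d6 to d12, 1 to 841 and 7 to 1348 over all days, 315 to 1169 and 209 to 982 for the change, and 11270 to 16894 for variation with day. The all-days counts were 31 and 71 without d6, 4 and 9 without d8, 1 and 7 without d10 and 2 and 10 without d12. The estimate for Tubb3 was between -0.24 and 1.19 over d6 to d12, the lowest without d6, and between -0.32 and 0.28 over all days, with -0.11 without d8. Among the values of single members under an alternative, 12 lost the call, 5 gained one, and the 3 edgeR estimates that changed sign were all of Tubb3. Of the folds on 1 day, that of Nes at d0 (0.800) was 1.05 with DESeq2 size factors and that of Zic1 at d12 (1.03) was 0.965 with TMM and 0.977 with DESeq2 size factors. Sox1 had too few reads to be tested over d6 to d12 without d12. The replicate numbers tie no samples together, so libraries could be paired only by day. The libraries of 1 day were matched by day as a factor in every fit of the lines. Depth limits Neurog2 and Hes5 on all days and Sox1 from d4 to d8, and at d10 in shDis3l2, where a library of 3 counts cannot be told from 0.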
